A study of Mus musculus with 12 samples.

Results

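The genes described here are 57 developmental transcription factor genes outside the Hox clusters, taken from a list of named genes and followed through peak lists of 2 histone marks. They are 57 of 21883 protein-coding mouse genes with a position in the gene table used, and they fall into 15 families, from the Iroquois and distal-less homeobox genes to the forkhead, T-box, GATA and Zic genes. H3K4me3 and H3K27me3 were mapped by CUT&Tag, in which an antibody directs the Tn5 transposase to cut and tag the DNA around a histone mark, in tumoroids grown from the PyMT mouse model of breast cancer, labelled WT in genotype. Organoids received the control treatment (Ctrl), SR2 or THC, names the labels do not spell out, and each was sampled 3 days after treatment, with 500000 cells per library and 2 libraries per mark and treatment (12 in all). The PyMT organoids are given as 1 cell line, every group including Ctrl comes from it, and nothing says whether the replicates were separate cultures. The p-values therefore reflect only the variation among these libraries, which could be technical. A member counted as H3K4me3-marked in a library when a peak lay within 1 kb of its start (of either gene end for the 13 members with no start in the table), and as H3K27me3-marked when a peak lay over the gene or its 5 kb of flank.

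H3K4me3 is deposited by the Trithorax and COMPASS complexes at promoters that are active or poised, and H3K27me3 by Polycomb repressive complex PRC2 at genes that are kept silent. Developmental transcription factors are the classical Polycomb targets: each is used in a few lineages and carries H3K27me3 over its CpG island elsewhere, and in stem cells many carry both marks, a state called bivalent. The mammary gland uses some of these families, Msx and T-box genes among them, when its buds form.

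The peak lists differed in length, which bears on every count below. The H3K4me3 lists held 11924 to 18383 peaks, with the 2 THC lists the shortest, and the H3K27me3 lists 70 to 2712 peaks, with replicate 1 the longer list in each treatment. The median read pileup at H3K4me3 summits was 62 and 58 in Ctrl, 36 and 54 under SR2, and 21 and 44 under THC, so THC replicate 1 was the weakest library of that mark. How deeply the H3K27me3 libraries were sequenced is unknown. The epithelial marker genes Epcam, Cdh1, Krt8, Elf5 and Cldn4 had H3K4me3 in all 6 libraries. All 7 epithelial markers were marked in each library but THC replicate 1, which had 5. Of the 5 basal markers 2, Krt5 and Krt14, were marked in each library but THC replicate 1, which had 0. Of the other lists, 0 of 3 muscle markers and at most 1 of 3 endothelial, 1 of 3 blood and 1 of 4 fibroblast markers were marked in any library; Pecam1, Cdh5, Ptprc, Cd3e, Pdgfra and Myod1 were at 0 throughout. Neural markers counted 2 of 4 in each Ctrl library (Map2 and Tubb3) and 1 of 4 (Map2) in each of the others, and the part of this in the results on neural members was not tested.

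Sequences upstream of 6 members are shown to compare starts with different marks. Irx3 and Msx1 carried H3K4me3 and no H3K27me3, Foxl2 both marks, Isl1 and Pou3f2 H3K27me3 alone, and Olig2 neither. Each line is the 250 bases upstream of the start, 5′ to 3′ on the gene's strand, from RefSeq on GRCm38.p6 (the assembly of mm10), with every CG dinucleotide in capitals. No annotated gene overlaps these bases. They lie at chr8:91801655-91801904, minus strand (Irx3), chr5:37824586-37824835, minus strand (Msx1), chr9:98955357-98955606, plus strand (Foxl2), chr13:116309689-116309938, minus strand (Isl1), chr4:22488367-22488616, minus strand (Pou3f2) and chr16:91225300-91225549, plus strand (Olig2).
Irx3: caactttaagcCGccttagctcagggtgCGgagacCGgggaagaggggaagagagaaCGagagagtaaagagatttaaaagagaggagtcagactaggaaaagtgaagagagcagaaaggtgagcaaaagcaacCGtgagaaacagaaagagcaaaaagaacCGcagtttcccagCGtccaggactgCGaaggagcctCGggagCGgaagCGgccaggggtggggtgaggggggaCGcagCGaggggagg
Msx1: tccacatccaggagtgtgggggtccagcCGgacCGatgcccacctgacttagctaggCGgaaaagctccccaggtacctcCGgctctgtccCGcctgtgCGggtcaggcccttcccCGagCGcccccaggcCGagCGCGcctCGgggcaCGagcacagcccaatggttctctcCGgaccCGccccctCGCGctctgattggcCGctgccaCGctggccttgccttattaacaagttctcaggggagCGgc
Foxl2: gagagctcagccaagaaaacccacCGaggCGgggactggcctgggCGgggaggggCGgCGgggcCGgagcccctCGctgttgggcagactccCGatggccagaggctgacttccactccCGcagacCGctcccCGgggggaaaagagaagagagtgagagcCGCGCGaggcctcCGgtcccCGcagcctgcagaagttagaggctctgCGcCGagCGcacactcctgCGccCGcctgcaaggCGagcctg
Isl1: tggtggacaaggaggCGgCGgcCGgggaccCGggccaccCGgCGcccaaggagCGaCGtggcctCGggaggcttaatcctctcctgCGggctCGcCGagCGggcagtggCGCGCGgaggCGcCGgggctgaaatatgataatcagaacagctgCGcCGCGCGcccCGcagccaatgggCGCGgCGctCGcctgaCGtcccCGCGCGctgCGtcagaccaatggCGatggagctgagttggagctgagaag
Pou3f2: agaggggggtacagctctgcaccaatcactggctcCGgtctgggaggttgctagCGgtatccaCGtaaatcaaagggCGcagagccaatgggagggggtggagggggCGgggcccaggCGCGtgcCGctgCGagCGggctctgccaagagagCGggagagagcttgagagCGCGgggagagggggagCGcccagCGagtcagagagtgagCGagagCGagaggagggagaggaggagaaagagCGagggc
Olig2: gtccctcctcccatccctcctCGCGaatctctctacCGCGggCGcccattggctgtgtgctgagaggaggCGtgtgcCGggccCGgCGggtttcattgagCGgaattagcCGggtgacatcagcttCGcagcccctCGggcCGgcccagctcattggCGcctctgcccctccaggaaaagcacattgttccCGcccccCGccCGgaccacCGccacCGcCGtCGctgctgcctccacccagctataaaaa

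H3K4me3 peaks lay over the printed bases of Irx3 in all 6 libraries and of Msx1 in 4, both Ctrl libraries, SR2 replicate 2 and THC replicate 2. H3K27me3 peaks lay over those of Foxl2 in 2 libraries (Ctrl and SR2 replicate 1), of Isl1 in 2 (Ctrl and THC replicate 1) and of Pou3f2 in 1 (Ctrl replicate 1). The H3K4me3 region of Foxl2 began downstream of the printed bases. The 6 stretches held 13 (Irx3), 20 (Msx1), 22 (Foxl2), 33 (Isl1), 18 (Pou3f2) and 22 (Olig2) CG dinucleotides. The unmarked Olig2 stretch thus held as many as that of Foxl2, which had both marks.

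Upstream stretches were matched for 44 of the 57 members. Each gene gave 1 stretch, that of its first listed start, while H3K4me3 was scored at every listed start. The motif CG, which reads the same on both strands, occurred in 44 of the 44, and in 92.7% of the 17491 stretches of this length for all genes. The median number of CG per 250 bases was 18.5 in the members (1 to 47), 15 in 80 other genes of the same families, 15 in the 150 genes with H3K27me3 in at least 3 libraries, 18 in the 8287 genes with H3K4me3 in all 6 libraries, and 10 over all genes. Members with H3K27me3 and never H3K4me3 had a median of 14 CG (27 members), those with H3K4me3 in 1 or more libraries 22 CG (16 members), and genes with neither mark 2 CG (6781 genes). The motif TATAAA, searched on both strands and free of any CG, stood in 5 of the 44 member stretches (11.4%), Olig2 among them, and in 12.4% of all stretches. These matches are descriptions of the letters and not of binding sites.

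Over all libraries the members parted into genes with H3K4me3 alone, genes with H3K27me3 alone and genes with both. H3K27me3 was found at 51 of 57 members in at least 1 library (89.5%), against 11.7% of all protein-coding genes, 51.7% of 118 other genes of the same families and 92.3% of the 39 Hox genes. H3K4me3 was found at 24 members (42.1%), against 57.4% of all genes. The members were chosen with earlier results of these data known, so these shares describe the list and test nothing. The 5 members with H3K4me3 and never H3K27me3 were the 4 Iroquois genes Irx1, Irx2, Irx3 and Irx5, and Msx1. Another 19 members had both marks in some library, 32 had H3K27me3 alone, and Olig2, the regulator of oligodendrocyte and motor neuron progenitors, had neither. The lack of a peak is not the lack of a mark, and fewer cells with a mark cannot be told from less of it per cell in these bulk samples.

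**Figure D1:**
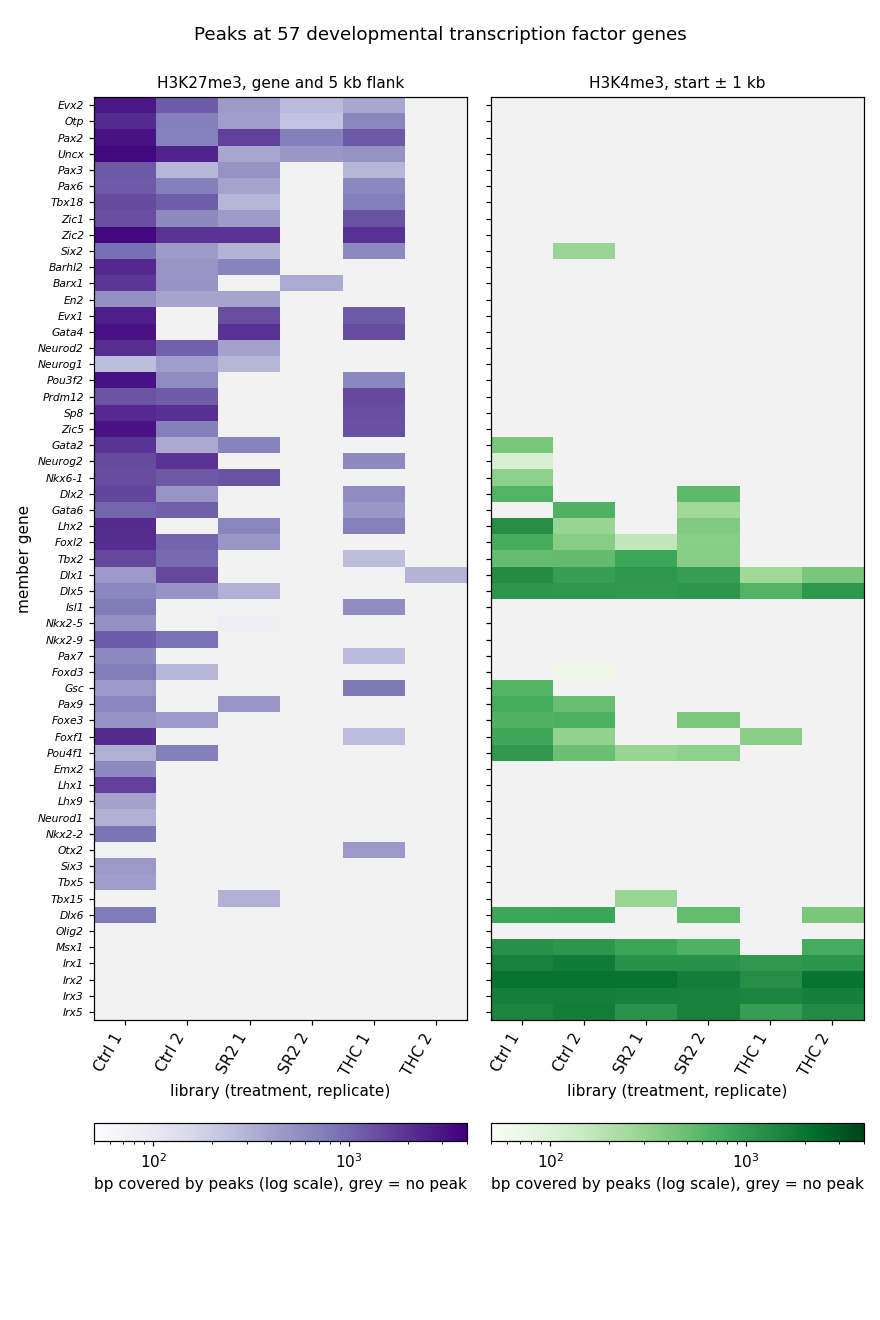
Peaks at the 57 member genes (lines) in each library (columns), as bp covered, on a log colour scale: H3K27me3 over the gene and 5 kb of flank on the left, H3K4me3 within 1 kb of the start on the right. H3K27me3 fills most of the Ctrl columns, with 49 and 32 members marked, while the 4 Iroquois genes at the bottom have H3K4me3 in all 6 libraries and no H3K27me3.

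In the Iroquois family, homeobox genes in 2 genomic clusters that pattern the embryo along its axes, all 4 members had broad H3K4me3 in every library. At Irx2, peaks covered 2001 and 2001 bp of the window of 2001 bp around the start in Ctrl, 2001 and 1679 bp in SR2, and 1280 and 2001 bp in THC (replicates 1 and 2). At Irx3, the covered length was 1651 and 1644 bp in Ctrl, 1598 and 1581 bp in SR2, and 1493 and 1634 bp in THC. The window is full at Irx2 in Ctrl and cuts the Irx3 peaks, so it cannot show a change in their full width. The whole peak region was 2712 and 2619 bp wide at Irx2 in Ctrl, 2545 and 2203 bp under SR2, and 1280 and 2420 bp under THC. At Irx3 the region was 2371 and 2186 bp wide in Ctrl, 2113 and 2072 bp under SR2, and 1493 and 2196 bp under THC. THC replicate 1 was thus the narrowest library at both genes, and the Ctrl and THC values of Irx3 overlapped. Irx1, covered over both gene ends because its start was not in the table, had 1583 and 1771 bp in Ctrl, 1179 and 1186 bp in SR2, and 1042 and 1127 bp in THC. Irx5, measured over both ends in the same way, had 1485 and 1701 bp in Ctrl, 1161 and 1580 bp in SR2, and 959 and 1342 bp in THC. For Irx5 the groups Ctrl and SR2 overlapped. Within the Irx1 windows Ctrl lay above all treated libraries, but these windows take in both gene ends. Both Ctrl libraries had added peaks at the lower-numbered end (1863 bp wide in replicate 1, 1003 and 713 bp in replicate 2). No treated library had a peak there. The region at the other end, cut by its window, was 1548 and 1648 bp in Ctrl and 1693 and 1561 bp under SR2. Under THC that region was 1042 and 1387 bp, and its full width overlapped between Ctrl and SR2. The Iroquois genes also had the highest summit pileups of the members, from 123 to 376 in Ctrl. They ran from 72 to 242 in SR2 and 29 to 123 in THC, each above the median pileup of its own library. By fold enrichment over the caller's background, their Ctrl peaks reached at most 5.82. That is below Dlx1 in Ctrl (8.57 and 7.67) and below the list medians of 7.525 and 7.863. By the authors' −log10 q, Irx1 in both THC libraries and Irx5 in THC replicate 1 stood below their list's median. None of the 4 genes passed a test in any comparison, and their regions at Irx2 and Irx5 also hold the ends of the long non-coding genes Gm20554 and Crnde, whose share of the signal cannot be told apart.

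Msx1, a homeobox gene of tooth, palate and skin appendage development, was the other member without H3K27me3. Its H3K4me3 covered 1187 and 1091 bp in Ctrl, 857 and 667 bp in SR2, and 0 and 760 bp in THC. Both Ctrl libraries lay above all 4 treated libraries, and THC replicate 1 had no peak.

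The distal-less genes, homeobox genes of jaw, limb and forebrain interneuron development, lie in the convergent pairs Dlx1 with Dlx2 and Dlx5 with Dlx6, and all 4 had both marks. At Dlx5, H3K4me3 covered 1102 and 1082 bp in Ctrl, 1050 and 1092 bp in SR2, and 637 and 1073 bp in THC, so THC replicate 1 alone stood low. At its partner Dlx6, it covered 823 and 848 bp in Ctrl, 0 and 523 bp in SR2, and 0 and 417 bp in THC, so both Ctrl libraries lay above every treated one. The Dlx6 region also holds an end of the non-coding gene Dlx6os2. At Dlx1, H3K4me3 covered 1310 and 953 bp in Ctrl, 1085 and 951 bp in SR2, and 266 and 412 bp in THC. The Ctrl and SR2 values of Dlx1 overlapped and both THC values lay below them. At Dlx2, peaks covered 649 and 0 bp in Ctrl, 0 and 564 bp in SR2, and 0 bp in both THC libraries.

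H3K27me3 at the same 4 genes was mostly a Ctrl signal. Dlx1 had 448 and 1486 bp of H3K27me3 in Ctrl, none in SR2, and 0 and 293 bp in THC, where it was the only member marked in THC replicate 2. Dlx2 had 1536 and 491 bp in Ctrl, none in SR2, and 570 and 0 bp in THC. A peak in the flank of Dlx2 in Ctrl replicate 1 had the highest −log10 q, the authors' value, of any member's H3K27me3 peak (7.82). That ranking compares values across lists. Dlx5 had 639 and 500 bp in Ctrl, 312 and 0 bp in SR2, and none in THC, while Dlx6 had a peak in Ctrl replicate 1 alone (775 bp).

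**Figure D2:**
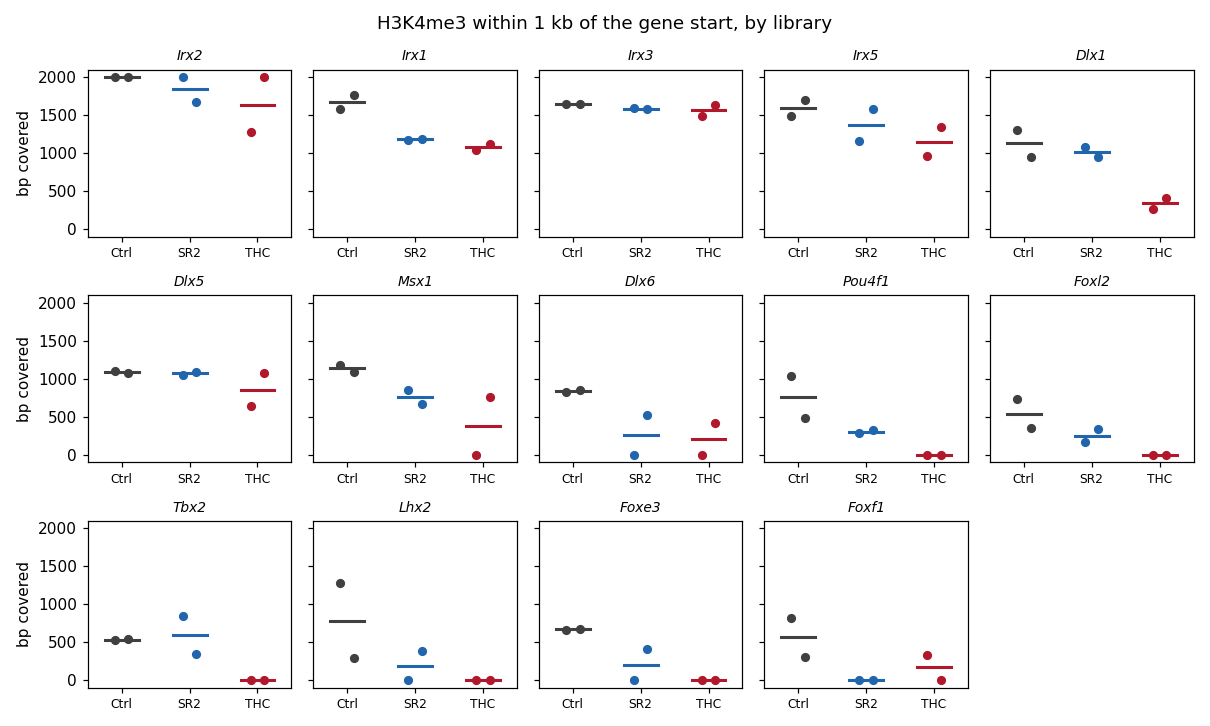
H3K4me3 cover (bp, vertical axis) within 1 kb of the start, or of either end where no start is known, of the 14 members marked in at least 3 libraries, by treatment; points are libraries and bars the mean of 2. The Iroquois genes, Dlx5 and Dlx1 have a peak in every library, Dlx1 is lowest in THC (266 and 412 bp), and Pou4f1, Foxl2, Tbx2, Foxe3 and Lhx2 have 0 bp in both THC libraries.

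The 4 forkhead genes also had both marks. Foxl2, the factor that maintains ovarian granulosa identity, had an H3K4me3 cover of 729 and 347 bp in Ctrl, 162 and 341 bp in SR2, and none in THC. Its H3K27me3 covered 2135 and 1051 bp in Ctrl, 472 and 0 bp in SR2, and none in THC, so both marks of Foxl2 were highest in Ctrl and without a peak in THC. Foxe3, a lens factor, had an H3K4me3 cover of 660 and 678 bp in Ctrl, 0 and 405 bp in SR2, and none in THC. Its H3K27me3, 509 and 451 bp in Ctrl, had no peak in any treated library. Foxf1, a factor of lung and gut mesenchyme, had an H3K4me3 cover of 819 and 311 bp in Ctrl, none in SR2, and 338 and 0 bp in THC. Its H3K27me3 was limited to replicate 1, with 2197 bp in Ctrl and 255 bp in THC. Foxd3, a neural crest factor, had H3K4me3 only at the edge of its window in Ctrl replicate 2 (67 bp) and H3K27me3 in Ctrl (760 and 288 bp).

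Among the T-box genes, Tbx2, which acts in heart, limb and mammary bud development, had an H3K4me3 cover of 528 and 539 bp in Ctrl, 841 and 348 bp in SR2, and none in THC. The SR2 libraries lay on either side of the Ctrl pair and only THC stood apart. The Tbx2 peak in Ctrl replicate 2 was weak, with a −log10 q of 1.46 in a list that starts at 1.30. Its summit pileup was 9. H3K27me3 at Tbx2 covered 1506 and 977 bp in Ctrl, none in SR2, and 252 and 0 bp in THC. The H3K4me3 region of Tbx2 holds an end of the non-coding gene 2610027K06Rik. Tbx18, a factor of epicardium and somites, had no H3K4me3, and its H3K27me3 covered 1442 and 1131 bp in Ctrl, 288 and 0 bp in SR2, and 745 and 0 bp in THC. Tbx5, a factor of heart and forelimb, had 421 bp of H3K27me3 in Ctrl replicate 1 alone, and Tbx15, a limb and skin patterning gene, had both marks in SR2 replicate 1 alone, 12219 bp apart (282 bp of H3K4me3 and 317 bp of H3K27me3).

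The POU gene Pou4f1, a sensory neuron factor, had an H3K4me3 cover of 1040 and 484 bp in Ctrl, 289 and 321 bp in SR2, and none in THC, so the 3 groups did not overlap. Its H3K27me3 covered 323 and 723 bp in Ctrl and had no peak elsewhere. Pou3f2, a cortical neuron factor whose start is printed above, had no H3K4me3, and its H3K27me3 covered 3119 and 569 bp in Ctrl, none in SR2, and 638 and 0 bp in THC.

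The LIM homeobox gene Lhx2, of forebrain, eye and hair follicle stem cells, had an H3K4me3 cover of 1282 and 287 bp in Ctrl, 0 and 382 bp in SR2, and none in THC, and H3K27me3 in replicate 1 of each treatment (2176, 650 and 709 bp in Ctrl, SR2 and THC). The H3K4me3 cover of Lhx2 joins 2 starts of the gene. Ctrl replicate 1 had a peak at both starts, and Ctrl replicate 2 at the upstream start alone (−log10 q 2.06). SR2 replicate 2 had its peak at the downstream start alone. The other 3 LIM genes had no H3K4me3. Isl1, of motor neurons and heart progenitors, had 779 bp of H3K27me3 in Ctrl replicate 1 and 566 bp in THC replicate 1. Lhx1 (1648 bp) and Lhx9 (397 bp), of kidney and gonad development, had it in Ctrl replicate 1 alone.

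Of the paired box genes, which build eye, kidney, muscle and thymus, only Pax9 had H3K4me3. It covered 760 and 510 bp in Ctrl and 0 bp in all 4 treated libraries. H3K27me3 at Pax9 covered 645 bp in Ctrl replicate 1 and 480 bp in SR2 replicate 1. Pax2, the kidney and inner ear factor, had H3K27me3 over 3059 and 699 bp in Ctrl, 1667 and 724 bp in SR2, and 1207 and 0 bp in THC, and was the only member with more H3K27me3 in SR2 replicate 2 than in Ctrl replicate 2. Pax3, of neural crest and muscle, had 1200 and 287 bp in Ctrl, 516 and 0 bp in SR2, and 286 and 0 bp in THC. Pax6, the eye factor, had 1157 and 734 bp in Ctrl, 395 and 0 bp in SR2, and 626 and 0 bp in THC. In both genes the Ctrl value was the higher within each batch, and no peak was found in replicate 2 of either treatment. Pax7, of muscle stem cells, had 600 bp in Ctrl replicate 1 and 261 bp in THC replicate 1.

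The most H3K27me3 cover in Ctrl lay over genes without H3K4me3. Cover adds up separate peaks within gene and flank. The widest single peaks in Ctrl were at Zic5 (3140 bp, replicate 1) and Sp8 (2068 bp, replicate 2). Uncx, a somite factor, had 3501 and 2423 bp in Ctrl, the most of any member in both libraries, then 365 and 477 bp in SR2, and 517 and 0 bp in THC. Otp, of hypothalamic neurons, had 2194 and 721 bp in Ctrl, 419 and 232 bp in SR2, and 641 and 0 bp in THC. For Uncx and Otp both Ctrl values lay above all treated ones. Evx2, next to the HoxD cluster, had 2879 and 1156 bp in Ctrl, 442 and 260 bp in SR2, and 363 and 0 bp in THC, and Evx1, next to the HoxA cluster, had a peak in replicate 1 of each treatment alone (2580, 1387 and 1151 bp in Ctrl, SR2 and THC). No H3K27me3 region of a member reached another member or a Hox gene. Uncx, Otp, Evx2 and Pax2 were the 4 members marked in 5 of the 6 libraries, and none was marked in 6.

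**Figure D3:**
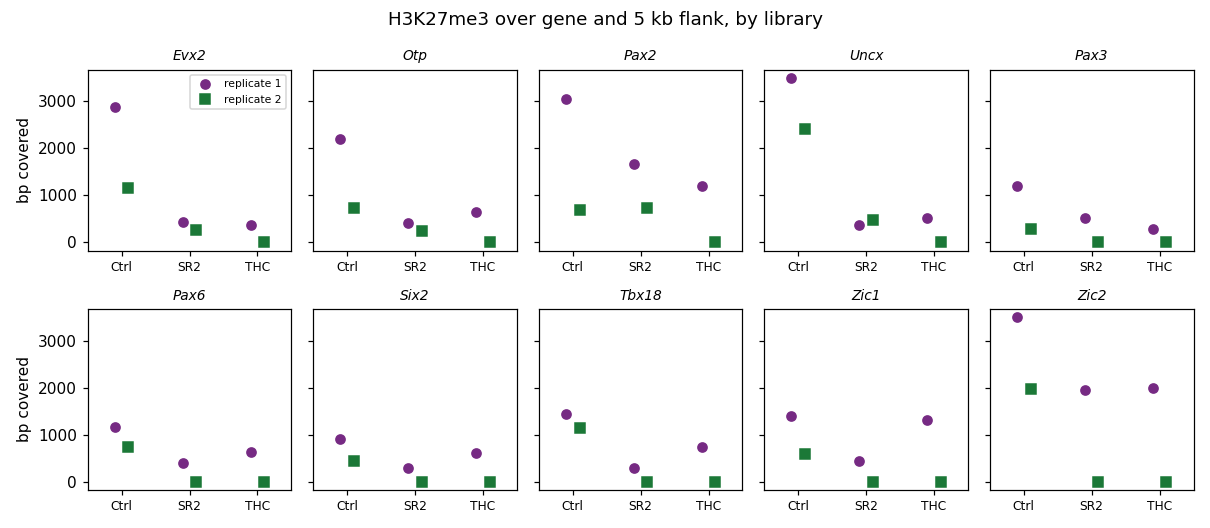
H3K27me3 cover (bp, vertical axis) of the gene and 5 kb of flank for the 10 members marked in at least 4 libraries, by treatment; circles are replicate 1 and squares replicate 2. Replicate 1 has the more cover in most panels, and THC replicate 2 is at 0 bp in all 10.

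All 5 zinc finger members had H3K27me3 in at least 3 libraries and never H3K4me3. Zic2, of the Zic genes of neural tube and cerebellum, had 3495 and 1981 bp in Ctrl, 1943 and 0 bp in SR2, and 1998 and 0 bp in THC. Its head-to-head neighbour Zic5 had 3140 and 722 bp in Ctrl, none in SR2, and 1347 and 0 bp in THC. Zic1 had 1403 and 595 bp in Ctrl, 439 and 0 bp in SR2, and 1307 and 0 bp in THC, so the Ctrl and THC values of Zic1 overlapped. Sp8, a limb bud factor, had 2226 and 2068 bp in Ctrl, none in SR2, and 1367 and 0 bp in THC. Prdm12, required for pain-sensing neurons, had 1290 and 1167 bp in Ctrl, none in SR2, and 1474 and 0 bp in THC, where replicate 1 exceeded both Ctrl libraries.

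The GATA genes set blood, heart and gut lineages. Gata4 had H3K27me3 in replicate 1 alone, over 3070 bp in Ctrl, 1993 bp under SR2 and 1427 bp under THC. Gata2 had 1935 and 351 bp in Ctrl and 684 bp in SR2 replicate 1, with H3K4me3 in Ctrl replicate 1 alone (412 bp). Gata6 had 1020 and 1126 bp of H3K27me3 in Ctrl and 468 bp in THC replicate 1, with H3K4me3 in replicate 2 of Ctrl (670 bp) and SR2 (264 bp). Of the 3 genes only Gata2 and Gata6 had H3K27me3 in both Ctrl libraries, and none had H3K4me3 in both.

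Of the 5 neurogenic bHLH genes 4 had H3K27me3, the exception being Olig2. Neurog2, which commits progenitors to the neuronal fate, had 1444 and 1969 bp in Ctrl, none in SR2, and 593 and 0 bp in THC, with 113 bp of H3K4me3 in Ctrl replicate 1. Neurod2, of differentiating cortical neurons, had 2096 and 1106 bp in Ctrl, 401 and 0 bp in SR2, and none in THC. Neurog1 ranged from 250 to 420 bp in the 3 libraries with a peak, and Neurod1 had 320 bp in Ctrl replicate 1 alone.

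Of the NK genes, Nkx6-1, of pancreatic beta cells, had 1427 and 1220 bp of H3K27me3 in Ctrl, 1313 and 0 bp in SR2, and none in THC, with 326 bp of H3K4me3 in Ctrl replicate 1. Nkx2-9 had 1158 and 873 bp in Ctrl and no peak in any treated library. Nkx2-5, the heart factor, had 526 bp in Ctrl replicate 1 and 85 bp in SR2 replicate 1, and Nkx2-2 had 829 bp in Ctrl replicate 1 alone. Six2, of kidney progenitors, had 910 and 435 bp in Ctrl, 299 and 0 bp in SR2, and 610 and 0 bp in THC, with 282 bp of H3K4me3 in Ctrl replicate 2 in a region that holds an end of the non-coding gene CJ186046Rik. Six3, of the forebrain, had 461 bp in Ctrl replicate 1 alone.

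The remaining homeobox members were Barhl2, Barx1, En2, Emx2, Gsc and Otx2. Barhl2, of retinal neurons, had 2267 and 489 bp of H3K27me3 in Ctrl, 682 and 0 bp in SR2, and none in THC. Barx1, of the stomach, had 1866 and 504 bp in Ctrl, 0 and 344 bp in SR2, and none in THC. En2, of midbrain and cerebellum, had 531 and 380 bp in Ctrl, 380 and 0 bp in SR2, and none in THC. These 3 genes shared an absence of peaks in both THC libraries. Emx2, of the cortex, had 600 bp in Ctrl replicate 1 alone. Gsc, of the gastrula organizer, had 627 bp of H3K4me3 in Ctrl replicate 1 and H3K27me3 in replicate 1 of Ctrl (459 bp) and THC (793 bp). Otx2, of the forebrain, was the only member marked in a THC library alone (458 bp of H3K27me3 in replicate 1).

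Both marks stood together mainly in Ctrl. Setting libraries of the same treatment and replicate side by side, 15 and 9 members had both marks in Ctrl, 3 and 0 under SR2, and 1 and 1 under THC. Their peaks overlapped at 9 members in Ctrl replicate 1, at 2 in Ctrl replicate 2 (Dlx1 and Gata6), at none in SR2, and at 1 in THC replicate 2 (Dlx1). At Dlx1 the overlap was 448 and 646 bp in the Ctrl libraries and 169 bp in THC replicate 2. At Foxl2 it was 1015 bp in Ctrl replicate 1, while in Ctrl replicate 2 the peaks lay 2112 bp apart. Tbx2 had 528 bp of overlap in Ctrl replicate 1 and a gap of 451 bp in Ctrl replicate 2, and Foxe3 had 393 bp of overlap and then a gap of 22 bp. At Dlx5 and Pou4f1 the 2 marks never overlapped: the gaps were 5531 and 5861 bp at Dlx5 and 6348 and 1756 bp at Pou4f1 in the Ctrl libraries. Over all genes the number with both marks was also lower in each treated library than in the Ctrl library of the same replicate number. It was 1133 and 103 genes in Ctrl, 446 and 62 under SR2, and 373 and 21 under THC. Replicate 1 of SR2 and of THC lay above Ctrl replicate 2. Among the H3K27me3-marked members, 30.6% and 28.1% also had H3K4me3 in the Ctrl libraries, against 65.4% and 42.6% of all H3K27me3-marked genes. The share was 12.5% and 0% of such members under SR2, against 68.9% and 56.4%, and 3.85% under THC in replicate 1, against 55.5%; in THC replicate 2 it rested on 1 member. The marks were measured in separate libraries of bulk cells, so both can come from different cells. The count of members with both marks in any library, 19, was 1 when each list was held to peaks with a −log10 q of at least 5 or to the same number of peaks, and 11 without Ctrl replicate 1.

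**Figure D4:**
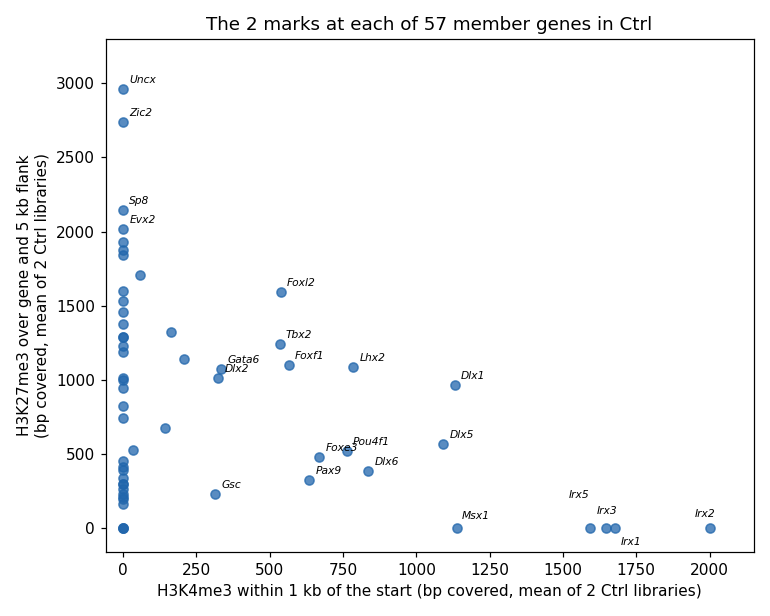
H3K4me3 cover within 1 kb of the start (bp, horizontal axis) against H3K27me3 cover of the gene and 5 kb of flank (bp, vertical axis), each the mean of 2 Ctrl libraries, for the 57 members (points). The Iroquois genes and Msx1 lie on the horizontal axis, Uncx, Zic2, Sp8 and Evx2 high on the vertical axis, and Dlx1, Dlx5, Lhx2, Foxl2 and others between them.

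H3K4me3 was found at fewer members in the treated libraries. The Ctrl libraries had 20 and 18 marked members, those of SR2 11 and 15, and those of THC 7 and 8. The mean difference from Ctrl was −6 members for SR2 and −11.5 for THC, and neither treatment overlapped Ctrl. An exact two-sided permutation test gave p = 0.333 for each, the smallest that 2 against 2 libraries allow. Within batches 1 and 2 the differences were −9 and −3 members for SR2 and −13 and −10 for THC. Over all protein-coding genes, the marked share was 56.3% and 54.3% in Ctrl, 51.8% and 53.8% under SR2, and 46.9% and 50.7% under THC. With each list held to the same number of its strongest peaks, 8 and 8 members were marked in Ctrl, 6 and 6 under SR2, and 7 and 8 under THC.

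Of the 15 members with H3K4me3 in both Ctrl libraries, 2 (Pax9 and Foxf1) had none in either SR2 library, 13.3% against a share of 1.62% over all genes marked in both Ctrl libraries. For THC there were 6 (Lhx2, Pax9, Foxe3, Foxl2, Tbx2 and Pou4f1), 40.0% against 5.67% over all genes. The other genes of these families gave 3 of 29 (10.3%) for SR2 and 7 of 29 (24.1%) for THC. Because the lists were chosen with earlier results of these data known, these shares are a description and not a test. Dlx1, Dlx5 and the 4 Iroquois genes had a peak in all 4 of the Ctrl and THC libraries. No member showed the reverse, a peak in both treated libraries and in neither Ctrl library (0.0211% of all genes for SR2 and 0% for THC). The 6 members without a THC peak had weak peaks in Ctrl, with summit pileups from 7 (Lhx2) to 34 (Pax9) against library medians of 62 and 58. The part of peak strength in the difference between the members and all genes was not tested. With the same number of peaks per list the count was 1 for SR2 (Msx1) and 0 for THC, and with a −log10 q of at least 5 it was 1 (Pax9) and 3 (Dlx1, Dlx6 and Pax9). Without Ctrl replicate 1, Ctrl replicate 2 or SR2 replicate 2 the SR2 count was 4, 6 and 5, without Ctrl replicate 2 the THC count was 11, and without the weak library THC replicate 1 it was 7.

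**Figure D5:**
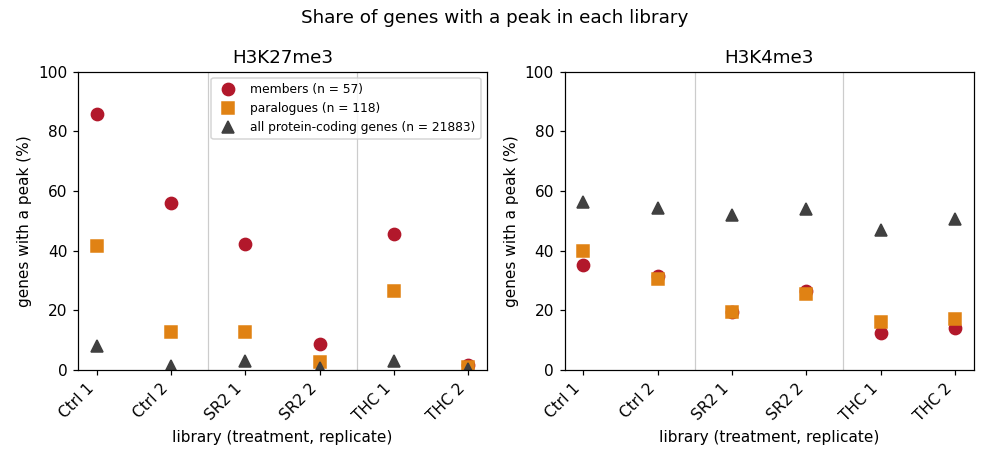
Share of genes with a peak (%, vertical axis) in each library for the 57 members (circles), 118 other genes of the same families (squares) and all 21883 protein-coding genes (triangles). For H3K27me3 the members lie above all genes in each of the 6 libraries, and for H3K4me3 below all genes, with the fewest marked members in THC (7 and 8).

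The breadth of H3K4me3 was tested with limma, an empirical Bayes linear model, on log2(bp covered + 200) of the whole peak region at the start, over 15772 regions. Of the 57 members, 17 had a region marked in at least 2 libraries and were tested. A member tested only through the group where it is marked had to differ. Pax9, with peaks in the Ctrl libraries alone, had to be lower in both treatments. Pax9 is among the members counted as lower below. The number tested, those counts and the members' medians are thus a description and support nothing. No region passed an adjusted p of 0.05 in SR2 against Ctrl, THC against Ctrl or THC against SR2 (0% of 15772 in each). At an unadjusted p under 0.05, 2 of the 17 members were lower in SR2 than in Ctrl (Foxf1 and Pax9), against 1405 regions lower (8.91%) and 103 higher (0.653%). For THC against Ctrl 6 were lower (Dlx1, Foxe3, Foxl2, Pax9, Pou4f1 and Tbx2), against 2903 regions lower (18.4%) and 695 higher (4.41%). For THC against SR2 3 were lower (Dlx1, Pou4f1 and Tbx2), against 1079 regions lower (6.84%) and 290 higher (1.84%). No member was higher at that level. The median log2 change was −0.29, −0.82 and −0.42 over the 17 members in the 3 comparisons, and −0.03, −0.15 and −0.03 over all regions. Over the 38 tested other genes of the families it was −0.106, −0.495 and −0.287. With the same number of peaks per list, leaving 7 members tested, the members' median was 0.02 for SR2 and −0.17 for THC against Ctrl. At a −log10 q of at least 5 (9 members) it was 0.00 and −0.34. Changes are relative to the median centring of the libraries, without which the median of all regions stood at −0.17, −0.52 and −0.27 in the same order.

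Per gene, the log2 changes rest on a pseudocount wherever a group has 0 bp. Pax9 gave −1.91 ± 0.34 (SE) for SR2 against Ctrl (adjusted p = 0.122) and −1.67 ± 0.34 for THC against Ctrl (adjusted p = 0.128). It was tested only through its Ctrl peaks and had 0 bp in every treated library, so its values had to be lower under every setting. Pou4f1 gave −1.82 ± 0.42 for THC (adjusted p = 0.128) and −0.73 ± 0.42 for SR2 (adjusted p = 0.842). Dlx1, which had peaks in all 6 libraries, gave −0.93 ± 0.18 for THC against Ctrl (adjusted p = 0.128) and −0.95 ± 0.18 for THC against SR2 (adjusted p = 0.318). Of these 3, Dlx1 alone had no empty library behind its values. Foxl2, Foxe3 and Tbx2 gave −1.65 ± 0.47, −1.80 ± 0.56 and −1.50 ± 0.46 for THC against Ctrl, with adjusted p from 0.143 to 0.15. Foxf1 gave −1.71 ± 0.66 for SR2 (adjusted p = 0.468). With a pseudocount of 50 bp or without centring the libraries, Pax9 in both comparisons and Dlx1 and Pou4f1 in THC had an adjusted p under 0.05 by limma; without centring it was 0.0153 for Pax9 in SR2, and 0.0138, 0.0282 and 0.0287 for Pax9, Dlx1 and Pou4f1 in THC. Without THC replicate 2 the adjusted p of Dlx1 was 0.0443. That fit has THC replicate 1 as its whole THC arm, assumes that it varies like the other groups, and calls 2145 regions. Over all alternatives the adjusted p of Dlx1 in THC ranged from 0.0282 to 0.544.

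H3K27me3 was found at fewer members in every treated library than in the Ctrl library of its batch. The Ctrl libraries had 49 and 32 marked members, those of SR2 24 and 5, and those of THC 26 and 1. Replicates of 1 treatment were also far apart. The mean difference from Ctrl was −26 for SR2 and −27 for THC, each with p = 0.333 in the exact two-sided permutation test. Within batch 1 it was −25 (SR2) and −23 (THC), and within batch 2 −27 and −31. Over all genes the share marked was 7.92% and 1.11% in Ctrl, 2.96% and 0.503% under SR2, and 3.07% and 0.137% under THC, so the lists shortened as a whole. Without SR2 replicate 2 the SR2 difference was −16.5, without THC replicate 2 the THC difference was −14.5, and without THC replicate 1 it was −39.5. Without Ctrl replicate 1 they were −17.5 and −18.5. With the same number of peaks from each list, 1 and 5 members were marked in Ctrl, 1 and 4 under SR2, and 2 and 1 under THC, and the differences were −0.5 and −1.5. With a −log10 q of at least 5, only 2 members in Ctrl replicate 1 and 1 in THC replicate 1 were left.

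Of the 32 members with H3K27me3 in both Ctrl libraries, 13 had none in either SR2 library and 13 none in either THC library, 40.6% in each case. Over all genes marked in both Ctrl libraries the share was 47.3% for SR2 and 38.9% for THC, so the members were near the background. The SR2 group included Dlx1, Dlx2, Neurog2, Tbx2, Sp8, Zic5 and Pou3f2, and the THC group Dlx5, Nkx6-1, Neurod2, Gata2, Foxl2, Barx1, Barhl2 and En2. Nkx2-9, Foxd3, Foxe3 and Pou4f1 belonged to both. No member had the reverse (0.0199% of all genes for SR2 and 0.00996% for THC). Without Ctrl replicate 2 the counts were 25 and 23, without SR2 replicate 1 the SR2 count was 27, and without THC replicate 1 the THC count was 31. They were 0 and 0 with a −log10 q of at least 5, and 1 (Dlx2) and 0 with the same number of peaks.

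In limma on log2(bp covered + 200), 41 of the 57 members were among the 554 genes tested, those marked in at least 2 libraries. Foxd3, Foxe3, Nkx2-9 and Pou4f1 were tested only through their Ctrl peaks and so had to be lower in both treatments. They are among the members counted as lower below, so those counts and the members' medians are a description and support nothing. No gene passed an adjusted p of 0.05 in the 3 comparisons (0% of 554 in each). At an unadjusted p under 0.05, 14 of the 41 members were lower in SR2 than in Ctrl, against 66 of the genes tested lower (11.9%) and 2 higher (0.361%). For THC against Ctrl 14 were lower, against 61 genes lower (11%) and 1 higher (0.181%). For THC against SR2 it was 0 members, against 3 genes lower (0.542%) and 0 higher (0%). The median log2 change was −1.76 over the members for SR2 and for THC against Ctrl, and −0.62 and −0.60 over all genes tested. Over the 32 Hox genes tested it was −1.33 for SR2 and −1.71 for THC, the latter close to the members. Over the 32 tested other genes of the families it was −0.98 and −0.87. These values are not centred, and they depend on the scaling and on single libraries. Under quantile normalization 6 and 5 members were lower at that level (SR2, then THC), against 15 and 11 genes lower and 2 and 2 higher. The medians were then −1.10 and −1.13 over the members and −0.10 and −0.11 over all genes. Without Ctrl replicate 1 they were −1.29 and −1.46 over the members and 0 and 0 over all genes, and without Ctrl replicate 2 −2.30 and −2.17 against −1.36 and −1.33. Without SR2 replicate 2 the SR2 medians were −1.26 and −0.36, with 2 members lower. Without THC replicate 2 the THC medians were −0.93 over the members and 0.01 over all genes, with 4 members lower. With the replicate block 21 and 23 members were lower at that level, against 93 and 93 genes. Among the other genes of the families, 32 of 118 were tested, and 5 (SR2) and 3 (THC) were lower at that level. The smallest adjusted p of a member was 0.24 against Ctrl for both treatments, and 0.892 when THC was set against SR2. Tbx2 gave −2.82 ± 0.69 (SE) for SR2 and −2.24 ± 0.69 for THC, with adjusted p = 0.24 and 0.288. Uncx gave −2.33 ± 0.83 and −3.04 ± 0.83, with adjusted p = 0.34 and 0.24. Nkx2-9, chosen for mention after its values were seen because it had the smallest unadjusted p, gave −2.59 ± 0.56 in both comparisons (adjusted p = 0.24). It was tested only through its Ctrl peaks and had 0 bp in all 4 treated libraries. Its adjusted p was 0.0209 without Ctrl replicate 1 and 0.0116 without Ctrl replicate 2, fits in which the gene has no spread left within any group and the lone Ctrl library is assumed to vary like the others. Under quantile normalization it was 0.996 for THC.

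Gene by gene within batches, most members had less cover than Ctrl. For H3K4me3, 18 of 21 (85.7%) and 16 of 19 (84.2%) members had less under SR2 in batches 1 and 2, against 90.0% and 60.3% of all genes. Under THC it was 20 of 20 and 17 of 18 (94.4%), against 98.9% and 86.3%. The H3K4me3 exceptions under SR2 were Tbx2 and Tbx15 in batch 1 and Dlx2, Dlx5 and Lhx2 in batch 2, where cover was higher. Among members with an H3K27me3 peak in either library of a batch, 48 of 50 (SR2) and 47 of 50 (THC) had less cover than Ctrl in batch 1, against 77.6% and 77.7% of all such genes. In batch 2 it was 31 of 32 and 32 of 32, against 76.6% and 96.0%. The members with more H3K27me3 than Ctrl were Neurog1 and Tbx15 (SR2, batch 1), Pax2 (SR2, batch 2) and Otx2, Prdm12 and Gsc (THC, batch 1). The members were chosen with results of these data known, so these shares are a description and not a test.

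The H3K27me3 peaks of the members were wide for their lists in Ctrl. In the 6 libraries the median −log10 q of the members' peaks, the authors' value, was 1.56 to 1.93, and the caller's lists start at 1.00. Within their lists the peaks stood at a median percentile by −log10 q of 68.8 and 51.9 in Ctrl, 65.1 and 62.4 under SR2, and 59.6 and 28.6 under THC, the last from 1 peak. The median width was 657 and 595 bp in the Ctrl libraries, against 344 and 377 bp over the whole lists, 401 and 344 bp in SR2 against 346.5 and 266 bp, and 333 and 293 bp in THC against 337 and 352 bp. Members' peaks were thus wider than the list in Ctrl and not in THC. Among members with a known start and an H3K27me3 peak, the peak reached within 1 kb of the start in 25 of 39 (64.1%) and 16 of 26 (61.5%) in Ctrl, against 54.4% and 38.7% of all such genes. In replicate 1 of the treatments the members were close to all genes, with 11 of 18 (61.1%) under SR2 against 63.3% and 12 of 20 (60.0%) under THC against 59.0%. In replicate 2 it was 3 of 5 against 34.4% under SR2, and 1 of 1 against 15.4% under THC. The H3K4me3 peaks of the members stood low in their lists, with a median percentile by −log10 q of 31.4 and 16.8 in Ctrl, 33.0 and 20.7 under SR2, and 43.1 and 39.9 under THC.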

How the data were processed

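The deposited files are peak lists, 1 per library, called by the authors on single samples: narrow peaks for H3K4me3 and broad peaks for H3K27me3. Per the submitters' processing notes the tools were MACS3, Bowtie2 2.5.4, SAMtools 1.8, bedtools, Picard, cutadapt 5.2 and deepTools with build mm10. The sources used here do not give their roles, the settings of the caller or any control. Each deposited line gives a position, a score, a fold enrichment (a ratio to the caller's background) and the authors' −log10 p and −log10 q. Percentiles by −log10 q were taken within each list. The cut-off of 5, the range of medians and the highest value of a member were taken across lists. The sample protocol and the series design name different dissociation enzymes. Reads were not used. Summit pileups of H3K4me3 were recovered from fold and −log10 p (at least 98.029% whole within 0.01 in −log10 p).

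Genes came from the RefSeq table of GRCm38.p6. Covered bp were tested with limma 3.58.1 (R 4.3.3, trend, Benjamini-Hochberg, threshold 0.05) on log2(bp + 200) in 1 fit of 6 libraries per mark, for features marked in at least 2 libraries. H3K4me3 libraries were centred on regions marked in all 6. H3K27me3 was not, since only 17 genes were. The limma step was tested on values simulated for the H3K4me3 regions, with the same spread everywhere and no empty library. That cannot show how the step behaves where libraries have 0 bp, or for H3K27me3. Numbers of members per library were compared by exact permutation tests over every split of the libraries (Python 3.11.15).

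In the labels the replicate number equals the batch, which pairs samples across treatments. The correlation of deviations of same-numbered libraries was −0.06, 0.03 and 0.05 for H3K4me3 and 0.03, 0.04 and −0.01 for H3K27me3 (Ctrl and SR2, Ctrl and THC, SR2 and THC).

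The members and the lists (118 other genes of the families, 39 Hox genes, cell type markers) were chosen with earlier results of these data known. Values in every library were due for members with H3K27me3 in at least 3 libraries, with H3K4me3 in both Ctrl libraries and neither of a treatment, with both marks in at least 2 treatment and batch pairs, with an adjusted p under 0.05, or among the 5 largest H3K4me3 changes in a direction, at most 30 per comparison.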

Additional observations from a re-analysis of the deposited data

How the results depend on the processing

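Counts from peak lists depend on the length and threshold of the lists. Held to the same number of peaks per library, the members with H3K4me3 in both Ctrl libraries and in neither treated one numbered 1 for SR2 and 0 for THC, those for H3K27me3 1 and 0, and members with both marks 1. At a −log10 q of at least 5 these were 1, 3, 0, 0 and 1. Members with both marks numbered 11 with at least 500 bp covered and 12 with H3K27me3 within 1 kb of the start. Leaving out 1 library gave 2 to 6 (H3K4me3, SR2), 7 to 11 (H3K4me3, THC), 13 to 27 (H3K27me3, SR2), 13 to 31 (H3K27me3, THC) and 11 to 19 (both marks). The mean differences in marked members ran from −8 to −4 and −12.5 to −10.5 for H3K4me3, and from −35.5 to −16.5 and −39.5 to −14.5 for H3K27me3 (SR2, then THC), and kept their sign. In limma, H3K4me3 regions past an adjusted p of 0.05 numbered 1059 (SR2) and 1417 (THC against Ctrl) with a pseudocount of 50 bp, and 994 and 1914 without centring. For THC against Ctrl they numbered 39 when a mark in at least 1 library sufficed and 4 with the same number of peaks. Leaving out 1 library gave 0 to 0 for SR2, 0 to 2145 for THC against Ctrl and 0 to 1206 for THC against SR2, the highest both without THC replicate 2. For H3K27me3 they numbered 1 and 1 at a −log10 q of at least 5, 3 and 3 with the same number of peaks (1 for THC against SR2), and 0 to 44 when 1 library was left out, with 44 without either Ctrl library; THC against SR2 stayed at 0. Where 1 library was left in an arm, it was assumed to vary like the other groups. The cause of these shifts was not tested. With the replicate block, which pairs the libraries of a batch, 0 regions or genes passed in all 6 comparisons, so the block changed no call. No difference in marked members and no printed log2 change of a single gene reversed its sign, but some medians did. Over all H3K4me3 regions the median was 0.02 under quantile normalization and 0.01 with the same number of peaks for SR2 against Ctrl. For THC against SR2 it was 0.04 with a mark in at least 1 library, 0.003 under quantile normalization and 0.04 without SR2 replicate 2. Over all H3K27me3 genes it was 0.01 for THC against Ctrl without THC replicate 2, and over the members with H3K4me3 0.02 for SR2 with the same number of peaks and 0.002 at a −log10 q of at least 5. The members' H3K27me3 median for THC against SR2, 0 with all libraries, ran from −0.66 without THC replicate 1 to 0.70 without THC replicate 2. Centring, and so its removal, was not run for H3K27me3. With 2 libraries per group no permutation test could pass 0.05, and the depth of the H3K27me3 lists, 70 to 2712 peaks, limits what a missing peak can show.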
